A study of Mus musculus with 8 samples.

Results

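Leydig cells are the steroid-producing cells that lie between the seminiferous tubules of the testis. The 10 genes described here encode the receptor, cholesterol handling proteins, enzymes, transcription factor and peptide hormone by which Leydig cells are usually known: *Lhcgr*, *Scarb1*, *Star*, *Cyp11a1*, *Fdx1*, *Hsd3b1*, *Cyp17a1*, *Hsd17b3*, *Nr5a1* and *Insl3*. They were chosen by symbol from the 40840 genes in the count tables, not by their measured values, and all 10 were counted in every mouse and entered the comparison of genotypes. RNAseq was carried out on whole testes of C57BL/6J mice collected at 12 days of age (P12), a mixture of germ cells and somatic cells by its label, from 4 wild type and 4 *Tra2b-cPEko* mice, with a letter from A to D for each mouse of a genotype. The mice were biologically independent.

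The mice called wild type were Tra2bPE fl/+, so they carried 1 allele in which the *Tra2b* poison exon, an exon whose inclusion stops the transcript from making protein, is flanked by LoxP sites, and they had no Cre. The *Tra2b-cPEko* mice were Tra2b fl/-;Vasa-Cre, with 1 floxed allele, 1 allele already lacking the poison exon, and the Vasa-Cre transgene, which is active in germ cells from embryonic life. The floxed allele is therefore recombined in germ cells. Leydig cells do not express this Cre and keep the poison exon on their floxed allele, but the second allele of *Tra2b-cPEko* mice lacks it in every cell. The comparison asks how Leydig cell genes were measured in testes in which the poison exon is missing from the germ cells. The study's methods state that the exact age of the testes could bring subtle variation in cell types, and they give no litter or batch.

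Luteinising hormone from the pituitary binds the receptor encoded by *Lhcgr* on Leydig cells and raises cyclic AMP. Cholesterol taken up from lipoproteins through the Scarb1 receptor is moved into mitochondria with the help of Star, where Cyp11a1, supplied with electrons by Fdx1, cuts its side chain to give pregnenolone. Hsd3b1, Cyp17a1 and Hsd17b3 then carry the steroid on towards testosterone. Mouse testes hold a fetal generation of Leydig cells, which declines after birth, and an adult generation, which builds up before puberty. *Nr5a1*, *Scarb1* and *Fdx1* are also used by other cell types, including Sertoli cells for the first pair, so these are Leydig markers in combination and not each alone.

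The 4 wild type libraries held 41998195 to 59101569 reads on genes, and the 4 *Tra2b-cPEko* libraries held 36757386 to 49992767. Each member had at least 685 reads in every mouse except *Insl3*, with 37 to 291. Values are given in CPM (a gene's read count scaled to its library's total on genes, with TMM factors for composition), so they are shares of the testis RNA: in a whole organ, fewer Leydig cells and less RNA per Leydig cell cannot be told apart. The library of *Tra2b-cPEko* C stood apart. Genes of the epididymal epithelium summed to 200 CPM in it, against 2.24 to 4.81 CPM in the other 7 mice, and adipocyte genes to 32.4 CPM against 8.63 to 12.6 CPM. *Crisp1*, a secreted epididymal protein gene, was at 107 CPM in that library and *Cdh16*, a cadherin gene of tubular epithelia, at 55.2 CPM. *Adam7*, *Lcn5* and *Pax2* of the epididymal list were raised there too, at 23.5, 7.12 and 7.05 CPM. The rest of that list was not: *Lcn8*, *Defb41* and *Rnase10* were at 0.15, 0 and 0.0428 CPM. Among the adipocyte genes, *Plin1*, at 8.64 CPM, lay within the range of the other mice. Counts of members, and values that shift without that mouse, are therefore also given without it. *Tra2b* itself averaged 164 ± 8.93 CPM in wild type and 198 ± 8.49 CPM in *Tra2b-cPEko* testes (SD, n = 4 each, edgeR adjusted p = 0.0552, DESeq2 adjusted p = 0.000195). The 4 mice of each genotype did not overlap. That count over the whole gene does not show the exon and so does not check the deletion.

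None of the 10 genes passed an adjusted p of 0.05 in edgeR's quasi-likelihood test, in which 0.157% of the 19104 genes tested did (25 higher and 5 lower in *Tra2b-cPEko*). With unadjusted edgeR p under 0.05 there were 2 members, *Lhcgr* and *Hsd17b3*, where 15.3% of all genes had one. DESeq2 called 1 member, *Lhcgr*, against 2.79% of all genes. The 4 values of each genotype did not overlap for 1 member, again *Lhcgr*, against 8.54% of all genes. The 2 members with a low unadjusted p moved in opposite directions: *Lhcgr*, the hormone receptor at the head of the pathway, was higher on average in *Tra2b-cPEko* testes, and *Hsd17b3*, the enzyme of the last step to testosterone, was lower. Of the 10, 7 had a higher and 3 a lower mean in *Tra2b-cPEko*, with a median log2 fold change of 0.26 beside 0.00 (-0.00108) over all genes tested. Without *Tra2b-cPEko* C, the members with unadjusted p under 0.05 numbered 3, with *Scarb1* added, where 10.4% of genes had one; neither edgeR nor DESeq2 then called any member, the median was 0.28, and *Lhcgr* was still the only member without overlap. With 10 genes each of these counts rests on 1 to 3 genes, and with all 8 mice those for the unadjusted p and for overlap are close to the shares over all genes.

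**Figure D1:**
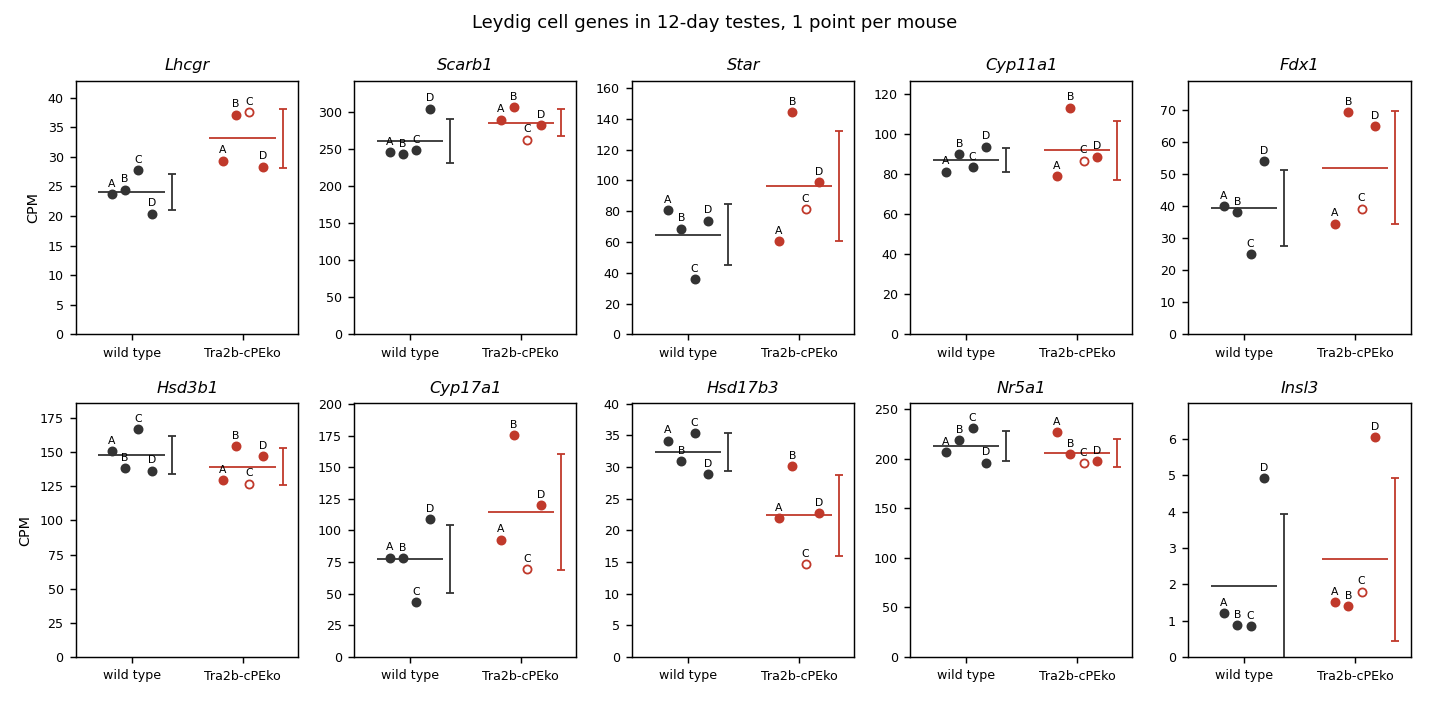
CPM of each Leydig cell gene in 8 testes, with 1 lettered point per mouse. Lines and bars are the mean and SD of 4 mice, and the open point is *Tra2b-cPEko* C. *Lhcgr* is the panel in which the genotypes do not overlap, while *Star*, *Cyp17a1* and *Fdx1* spread widely within each genotype.

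The stretch of promoter nearest to the transcription start is shown for the members with the lowest p, *Lhcgr* and *Hsd17b3*, and for a pair of neighbouring genes of the same enzyme family, *Hsd3b1* and *Hsd3b6*, whose values differed in pattern. RefSeq sequence of GRCm38.p6 was used, and a promoter was matched for 6 of the 10 members (*Cyp11a1*, *Hsd3b1*, *Lhcgr*, *Insl3*, *Hsd17b3* and *Fdx1*). Each line gives the 150 bases before the start, 5′ to 3′ along the gene's own strand, which is the minus strand of the chromosome in all 4. Capitals mark a match to TGATAA or AGATAA on either strand, letters that GATA factors such as Gata4, a regulator of steroid genes in gonads, can bind. The windows lie at chr17:88792015-88792164 for *Lhcgr*, chr13:64089202-64089351 for *Hsd17b3*, chr3:98859795-98859944 for *Hsd3b1* and chr3:98814444-98814593 for *Hsd3b6*.
*Lhcgr*: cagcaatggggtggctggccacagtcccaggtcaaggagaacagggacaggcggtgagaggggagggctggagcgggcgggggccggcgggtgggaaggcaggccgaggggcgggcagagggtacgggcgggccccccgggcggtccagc
*Hsd17b3*: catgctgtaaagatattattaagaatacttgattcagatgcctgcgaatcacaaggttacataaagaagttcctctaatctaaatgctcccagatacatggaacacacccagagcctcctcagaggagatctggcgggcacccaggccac
*Hsd3b1*: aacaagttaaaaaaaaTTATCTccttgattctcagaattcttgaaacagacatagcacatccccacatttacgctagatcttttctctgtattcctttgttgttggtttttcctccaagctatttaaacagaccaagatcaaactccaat
*Hsd3b6*: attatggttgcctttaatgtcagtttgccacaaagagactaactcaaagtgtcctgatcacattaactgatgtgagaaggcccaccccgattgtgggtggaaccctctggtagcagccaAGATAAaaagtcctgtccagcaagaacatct

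The *Lhcgr* window is rich in G and C (76.0%), the *Hsd3b1* window is poor in them (34.0%), and those of *Hsd17b3* and *Hsd3b6* are both at 45.3%. Within the whole promoter, from 250 bases before to 50 bases after the start, GATA letters were found for 2 of the 6 matched members: in *Hsd3b1* on the reverse strand at -134 to -129, and in *Fdx1* at -192 to -187. *Hsd3b6* held them at -31 to -26. Of 32817 promoters, 18.6% held such letters. The letters CAAGGTCA or CAAGGCCA, a form of the site that Nr5a1 binds, were in none of the 6 members' promoters and in 3.92% of all promoters. These are matches of letters in a short window and say nothing of binding.

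*Lhcgr* (chr17:89023909-89099473, minus strand, GRCm39), the receptor for luteinising hormone, was at 23.7, 24.5, 27.7 and 20.4 CPM in wild type mice A to D. In *Tra2b-cPEko* mice A to D it was at 29.4, 37.2, 37.6 and 28.4 CPM. All 4 *Tra2b-cPEko* mice were above every wild type mouse, although the gap between the highest wild type value and the lowest *Tra2b-cPEko* value was small. The means were 24.1 ± 3.0 and 33.1 ± 4.93 CPM (SD, n = 4 each), a log2 fold change of 0.46 (SE 0.115). The edgeR p was 0.00231 and the adjusted p 0.131, while DESeq2 gave an adjusted p of 0.00851. The two-sided exact permutation p was 0.0286, the smallest that 70 arrangements of 8 mice can give. Without *Tra2b-cPEko* C, the DESeq2 adjusted p was 0.0818 and the log2 fold change 0.39, so DESeq2 no longer called the gene. Relative to *Nr5a1*, *Lhcgr* was at 0.104 to 0.12 in wild type and 0.13 to 0.192 in *Tra2b-cPEko* mice (ratio of CPM), again without overlap. *Nr5a1* varied little among the mice, so this ratio mostly repeats the *Lhcgr* values and is no separate result.

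*Scarb1* (chr5:125353547-125418176, minus strand), the receptor that takes up cholesterol from high-density lipoprotein, was at 246, 243, 249.2 and 305 CPM in wild type mice A to D. It was at 290, 307, 263 and 282 CPM in *Tra2b-cPEko* mice. Wild type D lay among the *Tra2b-cPEko* values and well above the other 3 wild type mice, so the genotypes overlapped. The log2 fold change was 0.13 (SE 0.0744, edgeR adjusted p = 0.427), with an exact permutation p of 0.171. Without *Tra2b-cPEko* C it was 0.17, with an unadjusted edgeR p of 0.047 and an adjusted p of 0.479.

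*Star* (chr8:26296583-26306010, plus strand), which moves cholesterol to the inner mitochondrial membrane, was at 80.5, 68.7, 36.2 and 73.9 CPM in wild type mice A to D. In *Tra2b-cPEko* mice it was at 60.3, 144, 81.3 and 99.1 CPM. Wild type C was the lowest and *Tra2b-cPEko* B the highest of the 8, a 3.99-fold span, and the mean difference (log2 fold change 0.57, SE 0.353) lay within that spread (edgeR adjusted p = 0.499, exact permutation p = 0.2). It was 0.30 without *Tra2b-cPEko* B, 0.37 without wild type C and 0.64 without *Tra2b-cPEko* C. Of the exon bases of *Star* in GENCODE, 58.5% are also exon of *Ash2l*, a chromatin gene on the opposite strand. If the counting did not use strand, reads there could be shared or left out. *Ash2l* was at 114 to 133 CPM over the 8 mice, and the effect of such reads on the *Star* values was not tested.

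*Cyp11a1* (chr9:57913694-57935933, plus strand), the side chain cleavage enzyme that starts steroid synthesis, varied little in wild type mice A to D, at 81.4, 90.1, 83.4 and 93.8 CPM. In *Tra2b-cPEko* mice it was at 79.2, 113, 86.9 and 88.9 CPM. The *Tra2b-cPEko* mice other than B lay close to or within the wild type range. The log2 fold change was 0.08 (SE 0.101, edgeR adjusted p = 0.756), and without *Tra2b-cPEko* B its sign turned, to -0.04. *Fdx1* (chr9:51852253-51875291, minus strand), the ferredoxin that hands electrons to Cyp11a1, did not share this narrow range. It was at 40.1, 38.2, 25.0 and 53.9 CPM in wild type mice and at 34.5, 69.2, 39.2 and 64.8 CPM in *Tra2b-cPEko* mice, in the same order A to D. As for *Star*, wild type C was the lowest and *Tra2b-cPEko* B the highest. Its log2 fold change was 0.40 (SE 0.326, edgeR adjusted p = 0.608), and 0.22 without *Tra2b-cPEko* B or 0.23 without wild type C. Without *Tra2b-cPEko* C it was 0.51.

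*Hsd3b1* (chr3:98757367-98767116, minus strand), the 3-beta-hydroxysteroid dehydrogenase that turns pregnenolone into progesterone, was at 151, 138, 167 and 137 CPM in wild type mice A to D. It was at 129, 154, 127 and 147 CPM in *Tra2b-cPEko* mice. The ranges overlapped, and the log2 fold change of -0.09 (SE 0.0787, edgeR adjusted p = 0.63) was within the spread. The closest relatives of its transcript were *Hsd3b2* (88.1% identical over 1309 bases) and *Hsd3b6* (88.0% over 1342 bases). Only 167 bases of the *Hsd3b1* transcript matched another gene, *Gm12431*, at 95% identity or more, so few of its reads could be shared.

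*Cyp17a1* (chr19:46655604-46661611, minus strand), which makes the androgen precursors, was at 78.4, 78.1, 43.1 and 109 CPM in wild type mice A to D. In *Tra2b-cPEko* mice it was at 92.7, 176, 69.3 and 120 CPM. The highest mouse, *Tra2b-cPEko* B, was 4.07 times the lowest, wild type C. The log2 fold change was 0.56 (SE 0.384, edgeR adjusted p = 0.533, exact permutation p = 0.257), and ran from 0.28 without *Tra2b-cPEko* B to 0.78 without wild type D. Without wild type C it was 0.36, and without *Tra2b-cPEko* C 0.74.

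*Hsd17b3* (chr13:64206080-64237208, minus strand), which reduces androstenedione to testosterone, was at 34.2, 31.0, 35.3 and 28.9 CPM in wild type mice A to D. In *Tra2b-cPEko* mice it was at 21.8, 30.2, 14.6 and 22.7 CPM. Mice A, C and D of *Tra2b-cPEko* were below every wild type mouse, and B lay inside the wild type range. The means were 32.3 ± 2.96 and 22.3 ± 6.34 CPM (SD, n = 4 each), a log2 fold change of -0.54 (SE 0.196). The edgeR p was 0.0266 and the adjusted p 0.267, DESeq2 gave an adjusted p of 0.164, and the exact permutation p was 0.0571. Without *Tra2b-cPEko* C the log2 fold change was -0.38, with an unadjusted edgeR p of 0.00708 and an adjusted p of 0.31. DESeq2 then gave an adjusted p of 0.0853. Without *Tra2b-cPEko* B the log2 fold change was -0.72, with an edgeR adjusted p of 0.0899. In the fetal testis this enzyme is also made by Sertoli cells. *Amh*, a Sertoli cell hormone, was at 167, 211, 188 and 192 CPM in wild type and 161, 149, 103 and 172 CPM in *Tra2b-cPEko* mice (log2 fold change -0.37, edgeR adjusted p = 0.325, and -0.24 without *Tra2b-cPEko* C). *Amh* was the only one of 10 Sertoli genes with an unadjusted edgeR p under 0.05, and the median log2 fold change of the 10 was -0.04. For *Hsd17b3* and *Amh* alike *Tra2b-cPEko* C was the lowest mouse. It was also the lowest for the Sertoli genes *Sox9* (142 CPM, log2 fold change -0.05) and *Wt1* (292 CPM, -0.02), so this is not particular to the pair. The part of Sertoli cells in the *Hsd17b3* values was not tested.

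*Nr5a1* (chr2:38581468-38604642, minus strand), the transcription factor that switches on most steroid enzyme genes, was the steadiest member. It was at 206, 219, 230 and 196 CPM in wild type mice A to D and 227, 204, 196 and 197 CPM in *Tra2b-cPEko* mice. Its log2 fold change was -0.05 (SE 0.0599, edgeR adjusted p = 0.741). *Insl3* (chr8:72141858-72143225, plus strand), the peptide hormone that guides descent of the testis and rises as Leydig cells mature, was the least steady. It was at 1.20, 0.875, 0.841 and 4.93 CPM in wild type mice and 1.5, 1.39, 1.80 and 6.05 CPM in *Tra2b-cPEko* mice. Mouse D of each genotype stood far above the other 3. The log2 fold change of 0.40 (SE 0.807, edgeR adjusted p = 0.856) turned to -0.35 without *Tra2b-cPEko* D and was 1.44 without wild type D. Without *Tra2b-cPEko* C it was 0.54. All exon bases of *Insl3* lie within *Jak3* exons on the same strand in GENCODE, and 65.2% are also exon of *B3gnt3* on the opposite strand, so its reads are uncertain. *Jak3* was at 5.29 CPM in wild type D and 5.72 CPM in *Tra2b-cPEko* D and spanned 4.00 to 5.91 CPM over the 8 mice. The part of shared reads in the *Insl3* values was not tested.

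**Figure D2:**
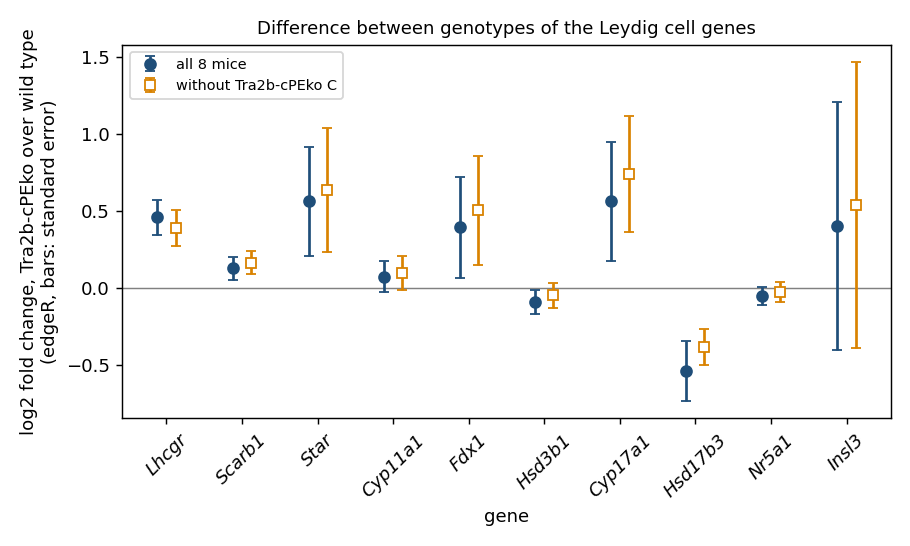
Log2 fold change of each Leydig cell gene, *Tra2b-cPEko* over wild type, from edgeR with 8 mice (filled circles) and without *Tra2b-cPEko* C (open squares); bars are standard errors. *Lhcgr* at 0.46 and *Hsd17b3* at -0.54 lie farthest from 0 for their error, while *Star*, *Cyp17a1* and *Insl3* have wide bars.

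The members differed widely in how much they varied among mice of one genotype. The SD of log2 CPM within genotypes was 0.258 at the median of the 10 genes and 0.122 at the median of all genes tested. In wild type, the median coefficient of variation was 11.9% for the members and 8.77% for all genes, and in *Tra2b-cPEko* mice 22.2% and 7.01%. *Insl3* had the largest SD, at 1.08, and 99.6% of all genes tested had a smaller one. *Cyp17a1* (0.563), *Star* (0.527) and *Fdx1* (0.482) followed, each above at least 95.2% of all genes. *Hsd17b3* was at 0.317, *Lhcgr* at 0.199, *Cyp11a1* at 0.17, *Hsd3b1* at 0.137, *Scarb1* at 0.128 and *Nr5a1* at 0.0995. The variable members thus stood at several steps of the pathway, cholesterol transport, electron supply and androgen synthesis. *Cyp11a1* varied less than these, although 63.9% of genes tested had a smaller SD. For *Nr5a1* only 40.1% of genes had a smaller SD.

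The mice at either end were the same for a group of members. For *Cyp17a1*, *Star* and *Fdx1* alike, wild type C was the lowest of all 8 mice, *Tra2b-cPEko* B the highest and *Tra2b-cPEko* D the second highest. In wild type C, *Cyp17a1* was 1.04, *Star* 1.06 and *Fdx1* 0.80 below its own mean over the 8 mice on the log2 scale (deviations of -1.04, -1.06 and -0.80). The same mouse had the highest *Hsd3b1*, *Nr5a1* and *Hsd17b3* of the 8. *Tra2b-cPEko* B was also the highest for *Scarb1* and *Cyp11a1*. These 3 genes were picked out after their values were seen, the mice have no ages beyond P12, and the source of the shared order was not tested.

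**Figure D3:**
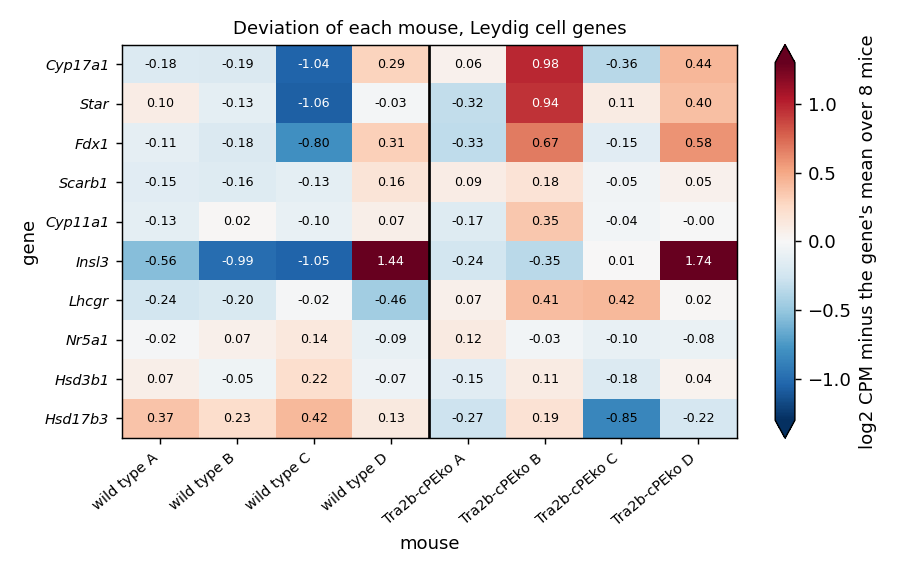
Log2 CPM of each Leydig cell gene in each mouse minus that gene's mean over the 8 mice; red is above and blue below the mean, and the colour scale ends short of the 2 highest *Insl3* values (1.44 and 1.74). In the upper 3 rows wild type C is the lowest mouse, at -0.80 or below, and *Tra2b-cPEko* B the highest; B is also the highest for *Scarb1* and *Cyp11a1*, by less.

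Set against the mean log2 CPM of the other 9 members in the same mouse, *Hsd17b3* was the only member whose genotypes did not overlap. In CPM itself, 8.54% of all genes had no overlap. The mean deviation of the 10 members was highest in *Tra2b-cPEko* B and D (0.343 and 0.295 on the log2 scale). The log2 ratio therefore also carries the other members' values. This log2 ratio averaged -0.76 ± 0.37 in wild type and -1.63 ± 0.32 in *Tra2b-cPEko* mice (SD, n = 4 each), a difference of -0.86, and -0.74 without *Tra2b-cPEko* C. *Hsd17b3* over *Cyp11a1*, the last enzyme over the first, was at 0.308 to 0.424 in wild type and 0.169 to 0.276 in *Tra2b-cPEko* mice (ratio of CPM). *Tra2b-cPEko* B was within the wild type range for *Hsd17b3* itself, but at 0.266 and below the wild type range in this ratio. That mouse had the highest *Cyp11a1* of the 8, at 113 CPM. Its place below the range thus came from the divisor and not from a lower *Hsd17b3*. The ratios of *Star*, *Cyp17a1* and *Fdx1* to *Cyp11a1* overlapped between genotypes. The other 9 members overlapped between genotypes when set against the rest, *Lhcgr* among them (difference 0.28).

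Levels of different genes were compared per kilobase of merged exon. In wild type testes the order of CPM per kilobase was *Cyp17a1* (27.8), *Scarb1* (25.2), *Hsd3b1* (25.2), *Nr5a1* (24.0), *Hsd17b3* (20.8), *Cyp11a1* (13.5), *Star* (11), *Fdx1* (4.4), *Insl3* (3.12) and *Lhcgr* (2.74). Neighbours in this order had overlapping ranges among the 4 wild type mice, except at the step from *Hsd17b3* to *Cyp11a1* and that from *Star* to *Fdx1*. In *Tra2b-cPEko* testes *Hsd17b3* averaged 14.4 CPM per kilobase and overlapped *Cyp11a1* (14.2), while its range no longer met that of *Nr5a1* (23.2). The *Insl3* level is uncertain, since its exons lie within those of *Jak3* and how such reads were assigned is not known. The *Star* level is uncertain too, since 58.5% of its exon bases are also exon of *Ash2l*. Reads were assigned with another annotation than the one used for these lengths, and the values are shares of a mixed tissue.

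**Figure D4:**
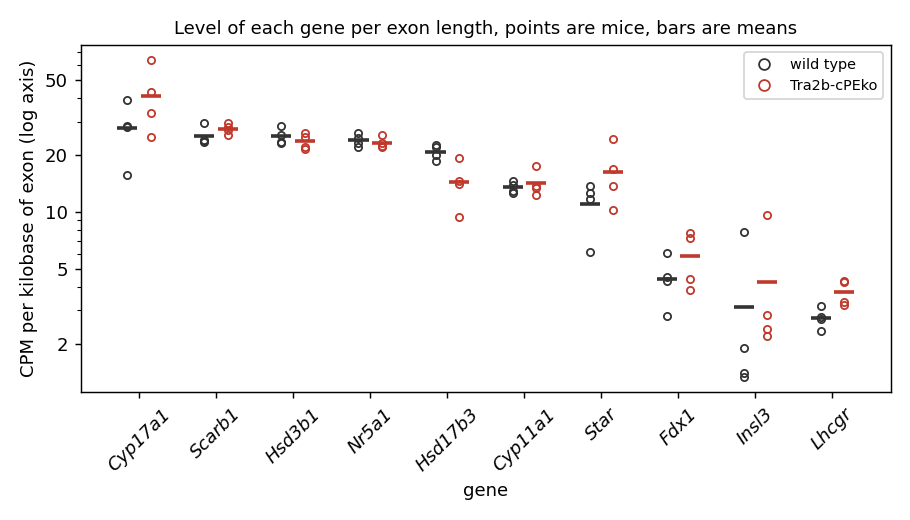
CPM per kilobase of merged exon for each Leydig cell gene, on a log axis, with 1 point per mouse and bars at the mean of each genotype; genes are ordered by the wild type mean. *Cyp17a1*, *Scarb1*, *Hsd3b1*, *Nr5a1* and *Hsd17b3* average above 20 in wild type, and *Fdx1*, *Insl3* and *Lhcgr* below 5.

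Of 14 other steroid enzymes and electron donors, 13 were tested and none passed the adjusted edgeR threshold; 1 higher and 2 lower had an unadjusted p under 0.05, a condition met by 15.3% of all genes. *Hsd3b6*, the 3-beta-hydroxysteroid dehydrogenase of adult-type Leydig cells, was at 11.9, 8.73, 11.6 and 13.2 CPM in wild type mice A to D. In *Tra2b-cPEko* mice it was at 30.2, 12.8, 28.1 and 20.7 CPM. Mice A, C and D were above every wild type mouse and B was not, the same split as for *Hsd17b3* in the other direction. Without *Tra2b-cPEko* C the log2 fold change of *Hsd3b6* was 0.91. With all mice it was 1.02 (SE 0.277, edgeR adjusted p = 0.183), and DESeq2 gave *Hsd3b6* an adjusted p of 0.0308, or 0.206 without *Tra2b-cPEko* C. The closest relative of its transcript was *Hsd3b3*, 93.8% identical over 1494 aligned bases, less than the 95% taken here as near-identical. The ratio of *Hsd3b6* to *Hsd3b1* was 0.0769 ± 0.0145 in wild type and 0.17 ± 0.0712 in *Tra2b-cPEko* mice (SD, n = 4 each), with *Tra2b-cPEko* B, at 0.0831, inside the wild type range.

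*Hsd17b1*, which reduces estrone and androstenedione in gonads, was lower in every *Tra2b-cPEko* mouse, at 8.62, 8.36, 4.96 and 8.66 CPM against 10.1, 11.3, 11.8 and 12.2 CPM in wild type. Its log2 fold change was -0.57 (SE 0.157, edgeR adjusted p = 0.147), and DESeq2 called it with and without *Tra2b-cPEko* C (adjusted p = 0.0192 and 0.0185). *Hsd17b12*, an enzyme of fatty acid elongation that can also act on steroids, was at 79.4 to 84.8 CPM in wild type and 74.5 to 78.3 CPM in *Tra2b-cPEko* mice (log2 fold change -0.09, edgeR adjusted p = 0.313). The electron donors *Fdxr*, *Por* and *Cyb5a* had log2 fold changes of -0.01, 0.09 and 0.01. *Hsd17b1* and *Hsd17b12* were the 2 of 13 genes whose genotypes did not overlap, against 8.54% of all genes.

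Among 12 genes of cholesterol uptake, storage and transport, none passed the adjusted edgeR threshold, and 2 had an unadjusted p under 0.05, both higher, against 15.3% of all genes. *Soat1*, which makes cholesterol esters for storage, was at 148, 142, 156 and 182 CPM in wild type and 186, 201, 187 and 187 CPM in *Tra2b-cPEko* mice A to D. Its genotypes did not overlap (log2 fold change 0.28, SE 0.069, edgeR adjusted p = 0.116, DESeq2 adjusted p = 0.0185, or 0.0774 without *Tra2b-cPEko* C). *Apoe*, a lipoprotein that carries cholesterol and is made by macrophages and steroid-producing cells, was at 137, 150, 137 and 162 CPM in wild type and 165, 161, 190 and 194 CPM in *Tra2b-cPEko* mice. The genotypes overlapped narrowly (log2 fold change 0.28, edgeR adjusted p = 0.135, DESeq2 adjusted p = 0.0235, or 0.18 without *Tra2b-cPEko* C). The summed CPM of the list was 1070 to 1240 in wild type and 1270 to 1330 in *Tra2b-cPEko* mice, without overlap. Such a sum gives most weight to the abundant genes, and the list did not move as a whole. Of the 12 genes, 7 had a positive and 5 a negative log2 fold change, with a median of 0.0323, or 0.015 without *Tra2b-cPEko* C.

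**Figure D5:**
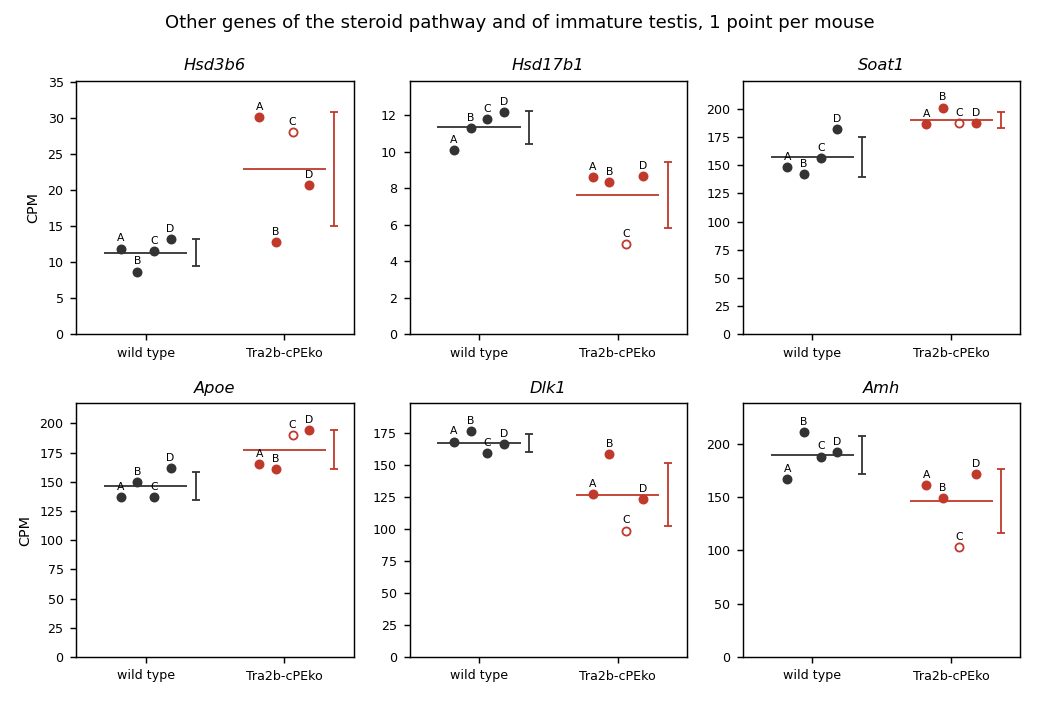
CPM of 6 other genes in each mouse, with the mean and SD of 4 mice; the open point is *Tra2b-cPEko* C. *Hsd3b6* and *Dlk1* show *Tra2b-cPEko* B nearest to wild type, and *Hsd17b1* and *Soat1* show genotypes that do not overlap.

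Of 15 regulators and receptors of Leydig cells, 14 were tested, none passed the adjusted threshold, and 1 higher and 1 lower had an unadjusted edgeR p under 0.05, again against 15.3% of all genes. *Insr*, the insulin receptor, was at 42.3 to 52.3 CPM in wild type and 51.9 to 55.1 CPM in *Tra2b-cPEko* mice (log2 fold change 0.17, adjusted p = 0.298). *Hhip*, which binds and limits hedgehog ligands, was at 20.5 to 30.0 CPM and 14.9 to 20.9 CPM (log2 fold change -0.38, adjusted p = 0.221), and its genotypes did not overlap once *Tra2b-cPEko* C was left out (-0.45, adjusted p = 0.32). *Dhh*, the hedgehog ligand by which Sertoli cells act on Leydig cells, and its targets *Ptch1* and *Gli1* had log2 fold changes of -0.07, -0.10 and -0.08. *Nr4a1*, an early gene that cyclic AMP raises, had the lowest log2 fold change of the list, at -1.09 (adjusted p = 0.377). It was at 48.5, 86.9, 21.4 and 20.9 CPM in wild type mice and 19.5 to 22.8 CPM in all 4 *Tra2b-cPEko* mice, so the difference came from wild type A and B. *Prlr*, the prolactin receptor, had the highest, at 0.32 (adjusted p = 0.439).

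Genes that distinguish the generations of Leydig cells gave no call in edgeR either. Of 9 genes of adult and immature Leydig cells, 8 were tested and 7 had a positive log2 fold change, with a median of 0.24, or 0.08 without *Tra2b-cPEko* C. *Hsd3b6* was the only one with an unadjusted p under 0.05, and *Akr1c14*, an androgen-metabolising enzyme gene of immature Leydig cells, was the only one below 0 (-0.14). Without *Tra2b-cPEko* C, *Ptgds* (-0.25, from 0.60 with all mice) and *Vcam1* (-0.0049) were below 0 as well. Of 7 fetal Leydig genes, 5 were tested. *Dlk1*, a Notch-like protein found in fetal Leydig and interstitial cells, was at 168, 176, 159 and 166 CPM in wild type and 127, 158, 98.5 and 123 CPM in *Tra2b-cPEko* mice A to D. Its ranges did not overlap, although *Tra2b-cPEko* B almost met wild type C (log2 fold change -0.40, SE 0.123, edgeR adjusted p = 0.204, DESeq2 adjusted p = 0.0169, or 0.0532 without *Tra2b-cPEko* C). Of the other fetal genes tested, *Thbs2* was at -0.10, *Ren1* at 0.17 and *Bex4* at 0.10. *Crip1* was at 1.42, or 0.27 without *Tra2b-cPEko* C, which was at 47.4 CPM against 5.98 to 8.98 CPM in the other 7 mice.

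Markers of neighbouring cell types are given beside these values; their part in the Leydig gene values was not tested. Adrenocortical genes, which some fetal testis cells express, summed to 6.62 to 14.6 CPM in wild type and 8.26 to 12.8 CPM in *Tra2b-cPEko* mice, and *Cyp11b1*, *Cyp11b2* and *Mc2r* had too few reads to test. The 9 genes of Leydig progenitors and interstitial stroma summed to 829 to 988 and 877 to 971 CPM, and none had an unadjusted p under 0.05. For the 10 Sertoli genes the median log2 fold change was -0.04, or -0.01 without *Tra2b-cPEko* C, and *Amh* was the only one with an unadjusted p under 0.05. All 7 genes of peritubular myoid cells were positive, with a median of 0.12 and 2 with an unadjusted p under 0.05, or a median of 0.08 and 1 such gene without *Tra2b-cPEko* C. All 8 endothelial genes were positive as well, with a median of 0.06, or 0.02 without that mouse, and none had such a p. Over all genes 15.3% had one, or 10.4% without that mouse. Without *Tra2b-cPEko* C, *Cnn1* of the myoid list (-0.04) and *Emcn* of the endothelial list (-0.08) turned negative.

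All 10 macrophage genes were positive, with a median log2 fold change of 0.26, or 0.21 without *Tra2b-cPEko* C, and 6 had an unadjusted edgeR p under 0.05, against 15.3% of all genes. Without that mouse 5 had one, against 10.4%. Testicular macrophages lie against Leydig cells and their number rises after birth. *Csf1r*, the growth factor receptor of macrophages, was at 21.8 to 27.9 CPM in wild type and 27.6 to 33.3 CPM in *Tra2b-cPEko* mice (log2 fold change 0.29, edgeR adjusted p = 0.136). DESeq2 called *Csf1r* (adjusted p = 0.04) and the chemokine receptor gene *Cx3cr1* (adjusted p = 0.0256), and neither without *Tra2b-cPEko* C (0.283 and 0.159). The summed list was at 148 to 184 CPM and 184 to 220 CPM. The 8 genes of germ cells, in which Vasa-Cre is active, summed to 2050 to 2320 CPM in wild type and 1980 to 2030 CPM in *Tra2b-cPEko* mice. These sums did not overlap, but the gap was narrow. Of the 8 genes, 7 had a negative log2 fold change (median -0.09). No germ cell gene was without overlap by itself, and 1, *Ddx4*, had an unadjusted edgeR p under 0.05 (0.0273). CPM are shares of a total, so a lower share of one cell type and a higher share of the others cannot be told apart here. The median difference of the Leydig members, 0.26, was about as large as that of the macrophage genes. Of the 10 Leydig members only 7 were positive, however, where all 10 macrophage genes were. Without *Tra2b-cPEko* C the medians were 0.28 and 0.21.

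The genes outside the list whose profile over the 8 mice was nearest to the mean profile of the 10 members, by the root mean square (RMS) difference in log2 CPM after each gene's own mean was taken off, were *Gm46735* (0.0893), *Aox4*, *Srxn1*, *Gm13212*, *A730056A06Rik*, *4930539J05Rik*, *Gm36591*, *Gm34402*, *Fendrr* and *Pex10* (0.12), among 15477 genes that averaged 1 CPM or more. A difference of 0.25 was the median over those genes. Of the members themselves, *Scarb1* (0.151) and *Cyp11a1* (0.159) were nearest to their mean profile, and *Insl3* (0.837) and *Hsd17b3* (0.473) farthest. The measure depends on the size of a gene's swings as well as on their direction. It therefore cannot show whether the members moved together.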

How the data were processed

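Stranded TruSeq mRNA libraries of whole testes at 12 days, 4 of each genotype, were sequenced as read pairs. The authors deposited raw counts per gene, 1 table per mouse, with 40840 gene symbols and 5 summary lines of the form written by htseq-count, which were left out. The submitters' processing notes name HISAT2 2.2.1, SAMtools 1.7.1, HTSeq 2.0.2 and deepTools 3.5.1 with GRCm39; the methods name Salmon for quantification. Whether reads were counted by strand is not given in the sources used here, so genes that overlap on opposite strands may share or lose reads.

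Genotypes were compared with edgeR 4.0.16 in R 4.3.3 (filterByExpr with least count 10 and least total 15, TMM, robust dispersions, quasi-likelihood F-test, genotype as the only term), with Benjamini-Hochberg adjustment over the 19104 genes tested and a threshold of 0.05. CPM use TMM-scaled library sizes (factors 0.994 to 1.01), and log2 CPM a prior count of 2. Permutation tests were exact and two-sided. DESeq2 1.42.0, limma-voom (limma 3.58.1), other factors and filters, a block for the replicate letter, and fits without each mouse were alternatives. The members and gene lists were chosen with earlier results of these data known. Members are all named. Of each other list, genes with unadjusted p under 0.05 or the highest or lowest log2 fold change could be named. Some others are given beside them. The result of a single gene is not reported here. No library was a copy of another (chi-square per degree of freedom at least 6.23 between any pair of libraries). Positions and exon lengths come from GENCODE vM39 on GRCm39 and promoters from RefSeq on GRCm38.p6; transcripts were compared with BLAST+ 2.17.0 (95% identity over at least 100 bases for near-identical copies). The edgeR steps were tested on simulated data.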

Additional observations from a re-analysis of the deposited data

Results flagged for a closer look

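Among 134 sets of 4 mice of one genotype (members, named genes and summed lists), 17 held a mouse far from the other 3 by Dixon's test. At 1 in 20, 6.7 would be flagged if the sets were unselected and independent. They were neither: named genes were picked for a low p or an extreme fold change, and summed lists hold genes that also entered singly. The 17 can therefore not be read against the 6.7. Of the members, *Insl3* was far above the others in wild type D (4.93 CPM) and *Tra2b-cPEko* D (6.05 CPM), and *Scarb1* in wild type D (305 CPM).

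Of the other genes of the pathway, *Hsd17b1* was far below the others in *Tra2b-cPEko* C (4.96 CPM) and *Soat1* above in *Tra2b-cPEko* B (201 CPM). Wild type D was also apart for *Cyp21a1* (2.74 CPM), the summed adrenocortical genes (14.6 CPM), *Pax2* (3.81 CPM) and, below the others, *Tagln* (89.9 CPM).

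*Tra2b-cPEko* C was apart for *Crip1* (47.4 CPM), *Ly6a* (9.17 CPM), *Fabp4* (14.1 CPM), *Cdh16* (55.2 CPM), the summed adipocyte genes (32.4 CPM) and the summed epididymal genes (200 CPM). *Mrc1*, a macrophage receptor, was high in wild type C (46.6 CPM) and *Plin1*, a lipid droplet protein, in *Tra2b-cPEko* A (11.1 CPM).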

How the results depend on the processing

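The direction of 8 of the 10 members held in all 17 alternative settings. The exceptions were *Cyp11a1* (log2 fold change -0.0397 to 0.141) and *Insl3* (-0.353 to 1.44), which turned without *Tra2b-cPEko* B and without *Tra2b-cPEko* D, respectively. No member was called by edgeR or limma-voom in any fit without the letter as a block; 1, *Lhcgr*, was called by DESeq2.

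The replicate letters were not shown to pair the mice (correlations of same-letter deviations between -0.135 and 0.116), so the block is no main result; with the replicate block 67 genes and 1 member, *Lhcgr* (adjusted p 0.029), were called. The 30 genes called over all genes became 58 with upper-quartile factors, 123 with no filter, 14 with a mean count of at least 50, 507 with DESeq2, 11 with limma-voom, 12 without robust estimation, 156 at an adjusted p under 0.1, and 110 with DESeq2 without *Tra2b-cPEko* C, an alternative chosen after seeing the data. Leaving out 1 mouse gave 3 to 84. The cause of these shifts was not tested. The members' median log2 fold change was 0.114 to 0.328 when each mouse was left out.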
